A study of Mus musculus with 6 samples.

Results

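The Ly6d-high cells of mouse intestinal organoids grown with an RXR antagonist were defined by their own RNA: a cell belonged when it held at least 5 Ly6d UMIs (counted RNA molecules) per 10000 UMIs. Of 3468 cells kept from the antagonist library, 1172 met this rule, a share of 33.8% (95% exact binomial interval 32.2% to 35.4%, counting error only). The whole series held 28379 kept cells. The Ly6d level that chose these cells, and every gene level set against the rest of their own library, is given as a description and was not tested.

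The organoids are cultures of gut epithelium grown from single cells of C57BL/6 wild type mice aged 8 weeks. The antagonist group (RXRi, 5 µM, with the unit written "μm" in the labels) was collected at day 4 (96 hours) after treatment at day 0 and again at day 3, and has 1 library. The other cells of that library, 2296 in number, had the same treatment. The day-1 vehicle group (DMSO, 24 hours) has 2 libraries with 5327 and 5079 kept cells. All groups started in a growth medium with Wnt3a-conditioned medium, a ROCK inhibitor and a GSK3B inhibitor, and the day-4 groups were moved to a medium without these at day 3. The Ly6d-high cells and the day-1 cells therefore differ in time, in medium and in treatment, which cannot be told apart. The remaining day-4 groups, each with 1 library, were all-trans retinoic acid (10 µM), vitamin A-free medium and DMSO vehicle. Per the study's design, the organoids came from 2 mice, but the labels tie no library to a mouse and do not say whether the day-1 libraries were separate cultures. The antagonist group has 1 library and cells are not replicates, so no test was run and genes are called by size alone.

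Ly6d, Ly6a and Ly6g encode small GPI-anchored cell surface proteins of the Ly6 family, whose genes share a locus on mouse chromosome 15. Ly6a (Sca-1) marks the fetal-like state that gut epithelium enters during repair after injury, together with annexins, Clu and Msln. RXR proteins are nuclear receptors that pair with other receptors, those for retinoic acid, vitamin D and fatty acids among them. Ly6d is better known from B cell precursors and from stratified epithelium such as skin and oesophagus.

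A few promoters of genes described below are shown. Ly6g is 1 of the markers that name the population, and Sprr2f and Sprr1a encode cornified envelope precursors of stratified epithelium. Each promoter runs over the 250 bases before the RefSeq start site, 5′ to 3′ on the gene's strand (GRCm38.p6). Ly6g lies at chr15:75155011-75155260 on the plus strand, Sprr2f at chr3:92364937-92365186 on the plus strand and Sprr1a at chr3:92485882-92486131 on the minus strand.
Ly6g: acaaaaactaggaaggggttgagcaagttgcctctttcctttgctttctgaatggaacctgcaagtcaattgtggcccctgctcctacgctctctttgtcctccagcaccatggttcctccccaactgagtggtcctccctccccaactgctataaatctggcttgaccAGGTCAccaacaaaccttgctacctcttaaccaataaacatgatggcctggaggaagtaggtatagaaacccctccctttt
Sprr2f: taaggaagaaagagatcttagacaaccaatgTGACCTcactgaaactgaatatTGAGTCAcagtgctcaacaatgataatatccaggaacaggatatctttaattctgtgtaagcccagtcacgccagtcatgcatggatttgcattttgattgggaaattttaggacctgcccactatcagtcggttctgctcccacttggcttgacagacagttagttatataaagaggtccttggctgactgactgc
Sprr1a: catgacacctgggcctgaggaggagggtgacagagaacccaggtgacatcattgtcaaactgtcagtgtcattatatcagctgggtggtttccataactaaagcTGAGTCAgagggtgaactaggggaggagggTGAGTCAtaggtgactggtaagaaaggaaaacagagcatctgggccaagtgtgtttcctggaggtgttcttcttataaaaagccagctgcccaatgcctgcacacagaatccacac
Capitals mark matches on either strand to the AP-1 motif TGANTCA, the TEAD motif GGAATG or the nuclear receptor half-site AGGTCA, none of which overlap here. Of 27025 promoters of this length, 6.87% held the AP-1 motif, 12.6% the TEAD motif and 13.8% the half-site. Sprr1a held 2 AP-1 matches, Sprr2f held 1 AP-1 match and 1 half-site, and Ly6g held 1 half-site. Of the promoters not shown, that of Mal held 1 TEAD match and those of Cnfn, Krt23 and Krt79 held none of these motifs. The windows and motifs were chosen after the values were seen, and a match describes letters only. Of the 12 genes furthest above the other cells, 6 had a promoter in the table used.

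Ly6d RNA stood far higher in the antagonist library than in any other. Its level was 1511 CPM (UMIs of the gene per 1000000 UMIs in the cells summed) there, 1.77 CPM with retinoic acid, 1.14 CPM in vitamin A-free medium and 0.340 CPM in day-4 vehicle, and 4.82 and 6.64 CPM in the day-1 libraries. The same rule was met by 3 of 5135 cells with retinoic acid, 2 of 4766 in vitamin A-free medium, 1 of 4604 in day-4 vehicle, and 8 of 5327 and 11 of 5079 at day 1. Among the Ly6d-high cells the median was 29.4 Ly6d UMIs per 10000, with a range of 5.01 to 465. Among the other cells the median was 0, and 1508 of 2296 (65.7%) held no Ly6d UMI. The Ly6d-high cells held 97.4% of the library's Ly6d UMIs and 36.6% of all its UMIs.

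**Figure D1:**
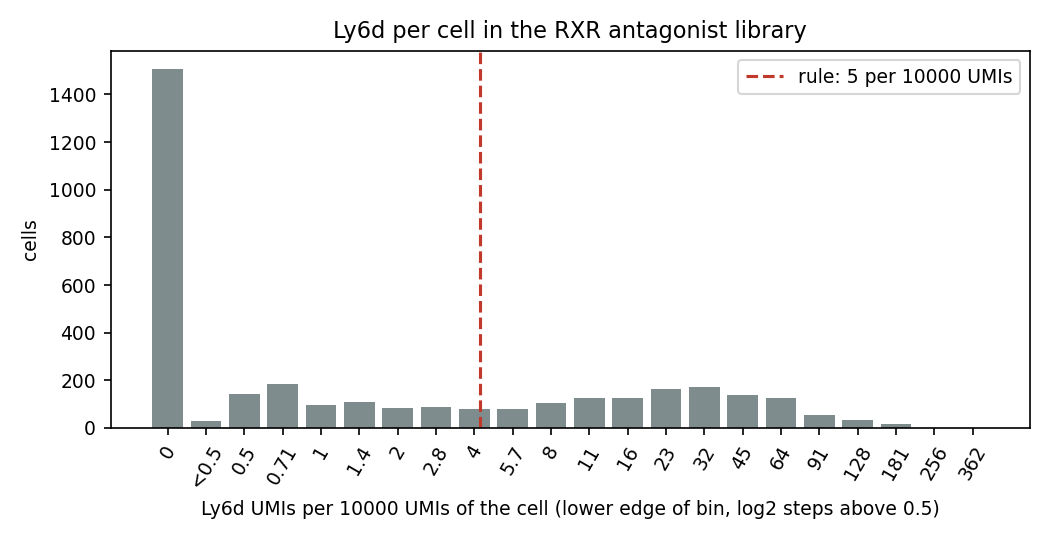
Number of cells (y axis) by Ly6d UMIs per 10000 UMIs of the cell (x axis, log2 steps above 0.5) in the antagonist library, with the rule at 5 as a dashed line. The largest bar is the 1508 cells at 0, and above it the counts run on through the rule without a gap.

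The Ly6d values showed no gap at the rule. The 50 cells just inside it (5 to 6 per 10000) and the 49 just outside (4 to 5) had 1373 and 1417 CPM of Ly6a, 329 and 394 CPM of Msln and 3525 and 3537 CPM of S100a6. They differed more in Ly6g, at 653 and 245.5 CPM, in Wfdc2, at 73.8 and 214 CPM, and in the summed goblet list, at 730.0 and 1718 CPM, and mitosis list, at 888 and 1647 CPM. The Ly6d-high cells were somewhat deeper, with a median of 14651 UMIs and 3742 genes, against 12906 UMIs and 3721 genes in the other cells. Their median mitochondrial share was 1.30%, against 2.12% in the other cells. The part of depth and mitochondrial share in the gene differences was not tested.

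The name regenerative was checked against 8 markers that the rule did not name (Ly6a, Anxa1, Anxa3, Anxa10, Clu, Msln, S100a6 and Lgals3). All 8 were higher in the Ly6d-high cells than in the other cells, 7 of them at least 2-fold, and all 8 were at least 2-fold above both day-1 libraries. Of the markers in the name, Ly6g was seen in 47.6% of Ly6d-high cells and 18.2% of other cells, after each cell was thinned to 5000 UMIs, and in 1.62% and 1.47% of day-1 cells. Wfdc2 was seen in 28.3% of Ly6d-high cells and 14.9% of other cells, and in 0.145% and 0.268% of day-1 cells. Without thinning, the Ly6d-high and other cells showed Ly6g in 60.8% and 24.3% and Wfdc2 in 40.5% and 22.3% of cells. Thinning left out 105 Ly6d-high and 123 other cells. Most Ly6d-high cells thus showed no Wfdc2 at this depth, and about as many lacked Ly6g as showed it. For cells of other types, the goblet-like cluster (99 cells, median 10970 UMIs, against 15127 in the Ly6d-high cells) showed Ly6g in 3.03% and Wfdc2 in 4.04% of cells. The enteroendocrine-like cluster (27 cells, median 7418 UMIs) showed each of them in 7.41% of cells. Ly6d itself was seen in 16.2% of goblet-like, 11.1% of enteroendocrine-like and 19.4% of other cells after thinning. How much of these shares came from free RNA was not tested.

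Lists of immune, neutrophil and lymphoid, fibroblast and red blood cell genes had no gene at 10 CPM in the Ly6d-high cells, the other cells or day 1. The neutrophil and lymphoid list, which covers cells known to carry Ly6 proteins, summed to 0.405 CPM in Ly6d-high cells, 0.0667 CPM in other cells, and 0.336 and 0.877 CPM at day 1, with 10 of its 13 genes at 0 UMIs in the Ly6d-high cells. The epithelial marker Epcam stood at 2378 CPM in Ly6d-high cells, 2400.0 CPM in other cells, and 2988 and 3216 CPM at day 1.

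Set against the other cells, the Ly6d-high cells had 164 of 7897 genes (2.08%) higher by 2-fold or more and 158 (2%) lower. The rule used this contrast, so nothing is read from these shares. The median log2 ratio over all genes was -0.13 at equal totals. TMM factors gave 242 higher and 105 lower, and DESeq2 size factors 254 and 101, so the split between directions depends on the scaling. Calls are made on log2 values after 5 CPM is added, while ratios below are of CPM itself at equal totals, with 95% intervals for counting error only.

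Several Ly6 genes stood higher. On the Ly6 family list 7 of 10 genes at the floor, Ly6d among them, were at least 1.5-fold above the other cells. On the same list 1 was at least 1.5-fold lower, where 5.45% of all genes were higher and 8.56% lower. Ly6m, of the same family, was at 159 CPM in Ly6d-high cells, 17.3 CPM in other cells, and 0.320 and 0.792 CPM at day 1. That is 9.20-fold over the other cells (8.37 to 10.1). Psca, a prostate and stomach Ly6-type surface protein, was at 66.9 CPM in Ly6d-high cells, 4.67 CPM in other cells, and 7.90 and 19.3 CPM at day 1. Psca thus differed from Ly6m in that the other antagonist-treated cells lay below both day-1 libraries. Ly6g was at 535 CPM in Ly6d-high cells, 173 CPM in other cells, and 3.89 and 4.42 CPM at day 1. Ly6a was at 1769 CPM in Ly6d-high cells, 703 CPM in other cells, and 131 and 137 CPM at day 1. Ly6c1 was at 163 CPM in Ly6d-high cells, 54.3 CPM in other cells, and 2.11 and 3.09 CPM at day 1. In day-4 vehicle these genes stood between 0.0200 CPM (Ly6g) and 2.54 CPM (Ly6a). Ly6e, of the same locus, was at 187 CPM in Ly6d-high cells, 202 CPM in other cells, and 169 and 176 CPM at day 1.

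In a window from Psca to Gpihbp1 (GRCm38, chr15:74714839-75598213), chosen after the values were seen, 29 protein-coding genes lie and 11 reached 10 CPM. Of these 11, 9 were called 2-fold higher in the Ly6d-high cells and 0 lower, beside 2.08% and 2% of all genes. The 9 include Ly6d, which chose the cells, and Ly6g, a marker in their name. Among them, Lynx1 was 4.01-fold (3.35 to 4.82) and Gml 7.31-fold (5.79 to 9.32) above the other cells. Gml2 was at 22.4 CPM in Ly6d-high cells and 3.20 CPM in other cells. The annotated spans of Gml and Gml2 overlap, and UMIs of close Ly6 paralogs can be assigned uncertainly between them. Ly6g2, at 25.9 CPM in Ly6d-high cells and 10.5 CPM in other cells, fell just short of the 2-fold mark (log2 0.994) because calls are made after 5 CPM is added to each value. Ly6e was the other gene not called.

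Genes of stratified and cornifying epithelium formed the second group. Of 36 genes on the squamous-type barrier list, 16 reached the floor of 10 CPM against the other cells. Of these 16, 9 stood at least 1.5-fold above the other cells and 0 below, and the median log2 ratio was 0.64. Against both day-1 libraries 14 stood above and 0 below. Over all genes, 5.45% were 1.5-fold higher and 8.56% lower than in the other cells. Against both day-1 libraries, 16.9% of all genes were 1.5-fold higher and 33.3% lower. Sprr2f was at 325 CPM in Ly6d-high cells, 47.5 CPM in other cells, and 0.112 and 0.287 CPM at day 1. Only 112 Ly6d-high cells held a Sprr2f UMI, and the 20 cells with most carried 76.1% of the total, so this level describes a small subset. Sprr1a was at 959 CPM in Ly6d-high cells, 212 CPM in other cells, and 5.95 and 25.5 CPM at day 1. Sprr1a was more widely spread, in 37.7% of thinned Ly6d-high cells, 10.4% of other cells, and 1.81% and 5.59% of day-1 cells. The goblet-like cluster showed Sprr1a in 36.4% of cells and the enteroendocrine-like cluster in 7.41%, so the share in Ly6d-high cells was not above that of every other type and is not read as particular to them. Ivl (involucrin, a cornified envelope scaffold) was at 51.2 CPM in Ly6d-high cells, 8.47 CPM in other cells, and 0.0320 and 0.118 CPM at day 1. Cnfn (cornifelin, another envelope protein) was at 36.9 CPM in Ly6d-high cells and 2.43 CPM in other cells, and had 0 UMIs in both day-1 libraries, where the floor of 3 UMIs per library puts Ly6d-high cells at least 769.6-fold and 730.2-fold higher. Cnfn was seen in 3.19% of thinned Ly6d-high cells (5.53% unthinned), 0.414% of other cells and 1.01% of goblet-like cells, so its level too describes a small subset.

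The window of the epidermal differentiation complex (GRCm38, chr3:90511034-93564645, S100a1 to S100a10), also chosen after the values were seen, holds 70 protein-coding genes, of which 15 reached the floor. In that window 7 were called 2-fold higher in Ly6d-high than in other cells (2.08% of all genes) and 0 lower, and 12 were higher than both day-1 libraries (9.03% of all genes). UMIs of near-identical Sprr2a copies may be split uncertainly. Sprr3 and Sprr1b had 0 UMIs in the Ly6d-high and other cells, so the cornification genes seen were a part of the complex.

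Keratins were higher as well. All 6 simple epithelial keratins on the list were at least 1.5-fold higher in Ly6d-high cells than in other cells and than in both day-1 libraries. Of all genes, 5.45% were that far above the other cells and 16.9% above both day-1 libraries. Krt7, a keratin of ductal epithelium, was at 2316 CPM in Ly6d-high cells, 885 CPM in other cells, and 413 and 471 CPM at day 1. Thinned cells showed Krt7 in 98.5% of Ly6d-high, 86.9% of other and 100% of goblet-like cells, so its share is not read as particular. Krt79 and Krt4 are keratins of hair follicle canal and of oesophageal lining. Krt79 was at 124 CPM in Ly6d-high cells, 21.8 CPM in other cells, and 0.0480 and 0.135 CPM at day 1. Krt4 was at 71.0 CPM in Ly6d-high cells, 24.6 CPM in other cells, and 0.0480 and 0.202 CPM at day 1. Both keratins were near 0 at day 1 and in day-4 vehicle, where they had 0.0200 and 0.0400 CPM. Mal, an apical sorting protein, was at 230 CPM in Ly6d-high cells, 31.0 CPM in other cells, and 0.512 and 1.01 CPM at day 1. Mcpt2, a chymase best known from mucosal mast cells, was at 182 CPM in Ly6d-high cells, 15.98 CPM in other cells, and 0.768 and 1.26 CPM at day 1, while the immune list summed to 1.27 CPM in the Ly6d-high cells.

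**Figure D2:**
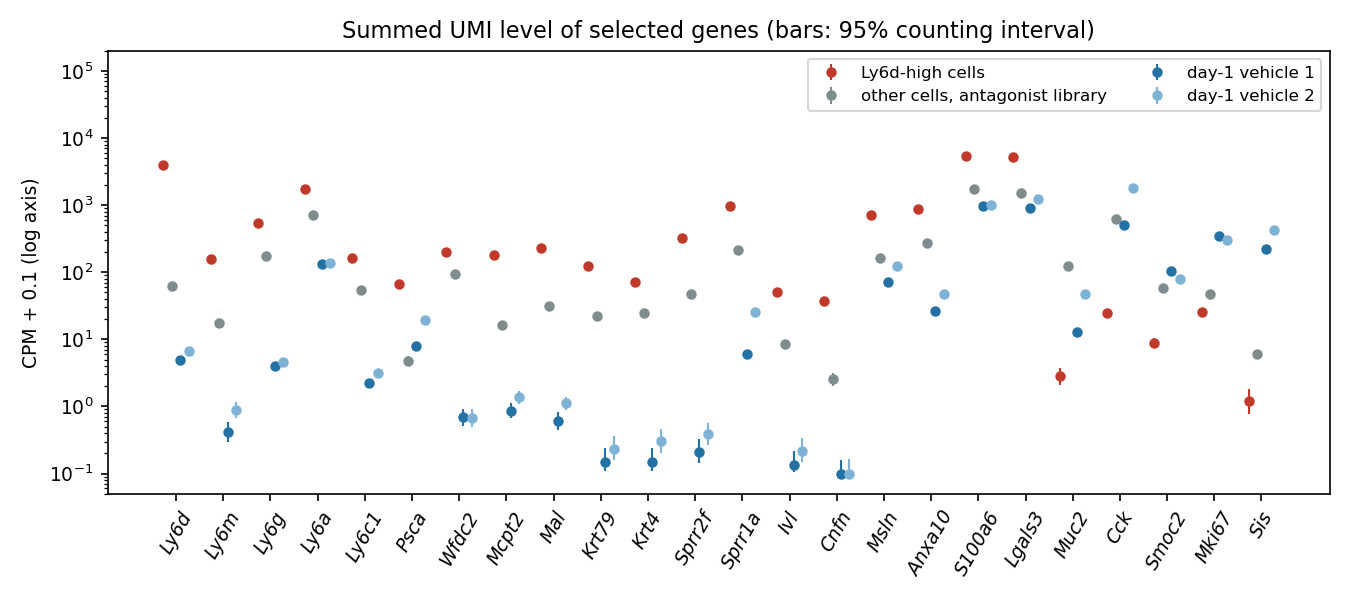
Summed level (CPM + 0.1, log axis) of 24 genes in Ly6d-high cells, other cells of the antagonist library and each day-1 vehicle library, with 95% counting intervals. Krt79, Sprr2f and Wfdc2 lay below 1 CPM at day 1, while Muc2, Cck, Smoc2 and Mki67 were lower in Ly6d-high cells than in the other cells.

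On the regenerative list, 20 of 25 genes reached the floor. Of these, 15 stood at least 1.5-fold above the other cells and 1 below, beside 5.45% and 8.56% of all genes. Their median log2 ratio was 1.15. Against both day-1 libraries 16 were higher and 2 lower, with a median of 2.36, where 16.9% of all genes were 1.5-fold higher and 33.3% lower. Msln (mesothelin) was at 713 CPM in Ly6d-high cells, 162 CPM in other cells, and 71.0 and 124 CPM at day 1. Anxa10, an annexin of gastric epithelium, was at 876 CPM in Ly6d-high cells, 274 CPM in other cells, and 26.2 and 48.0 CPM at day 1. Clu, which marks revival stem cells, was at 154 CPM in Ly6d-high cells, 53.2 CPM in other cells, and 30.01 and 44.3 CPM at day 1. S100a6, a calcium-binding protein, was at 5385 CPM in Ly6d-high cells, 1764 CPM in other cells, and 959.6 and 1017 CPM at day 1. The gene that went the other way was Ccn1, a YAP target, at 3.18 CPM in Ly6d-high cells, 18.3 CPM in other cells, and 10.5 and 14.2 CPM at day 1. The list of YAP and TEAD targets was mixed, with 4 of 8 genes 1.5-fold higher and 1 lower than in the other cells. F3 (tissue factor) and Myof (myoferlin) were among the higher ones, F3 at 852 CPM in Ly6d-high cells, 253 CPM in other cells, and 48.0 and 71.5 CPM at day 1.

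Secreted factors and receptors differed gene by gene. On the EGF receptor list 3 of 10 genes were at least 1.5-fold above the other cells and 2 lower, and 7 were above both day-1 libraries and 2 lower. Of all genes, 5.45% were 1.5-fold above the other cells and 8.56% below, and 16.9% and 33.3% against both day-1 libraries. Areg (amphiregulin), the most abundant ligand, was at 2523 CPM in Ly6d-high cells, 1275 CPM in other cells, and 376 and 658 CPM at day 1. The lower ones were Lrig1 and Lrig3, of a family of EGF receptor regulators, with Lrig1 at 7.24 CPM in Ly6d-high cells, 15.7 CPM in other cells, and 27.0 and 20.3 CPM at day 1. On the matrix, adhesion and migration list 10 of 24 genes were 1.5-fold above the other cells and 1 lower. Plat (tissue plasminogen activator) was at 196 CPM in Ly6d-high cells, 47.4 CPM in other cells, and 5.65 and 12.7 CPM at day 1. Plaur, the urokinase receptor, was at 439 CPM in Ly6d-high cells, 205 CPM in other cells, and 50.4 and 59.2 CPM at day 1. Il1rn, the interleukin-1 receptor antagonist, was at 340 CPM in Ly6d-high cells, 90.3 CPM in other cells, and 11.3 and 17.6 CPM at day 1. Each of these stood at under 8 CPM in day-4 vehicle except Areg, Lrig1 and Lrig3. Of the interferon genes 4 of 8 were 1.5-fold above the other cells and 0 lower, led by Oasl1 at 277 CPM in Ly6d-high cells, 103 CPM in other cells, and 4.75 and 13.7 CPM at day 1.

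Gastric-type genes were few at the floor. Tff1, a trefoil peptide of stomach mucus, was at 284 CPM in Ly6d-high cells, 124 CPM in other cells, and 1.66 and 5.39 CPM at day 1, with 0 UMIs in day-4 vehicle. Tff1 was seen in 9.47% of thinned Ly6d-high cells (12.8% unthinned), 4.83% of other cells and 12.1% of goblet-like cells, so its share is not read as above that of other types. Ctse (cathepsin E), a protease of stomach surface cells, was at 13.2 CPM in Ly6d-high cells, 2.43 CPM in other cells, and 1.10 and 1.82 CPM at day 1. Tff3, the goblet cell trefoil peptide, was at 146 CPM in Ly6d-high cells, 1208 CPM in other cells, and 310 and 922 CPM at day 1.

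Retinoid genes split. Of 21 at the floor against the other cells, 3 were 1.5-fold higher and 7 lower, beside 5.45% and 8.56% of all genes. Aldh1a1, which makes retinoic acid, was at 10.5 CPM in Ly6d-high cells, 42.9 CPM in other cells, and 30.2 and 52.3 CPM at day 1. Vdr, the vitamin D receptor and an RXR partner, was at 2.66 CPM in Ly6d-high cells, 20.2 CPM in other cells, and 29.6 and 27.7 CPM at day 1. Rxra was at 12.2 CPM in Ly6d-high cells, 7.50 CPM in other cells, and 11.9 and 12.1 CPM at day 1. In day-4 vehicle Aldh1a1 had 286 CPM and Vdr had 118 CPM.

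The intestinal transcription factors did not go one way, with 2 of 18 at least 1.5-fold above the other cells and 3 lower. Of all genes, 5.45% were that far above the other cells and 8.56% below. Cdx1, an intestinal homeobox factor, was at 63.0 CPM in Ly6d-high cells, 133 CPM in other cells, and 173 and 162 CPM at day 1. Isx, an intestinal homeobox factor induced by retinoic acid, was at 53.3 CPM in Ly6d-high cells, 104 CPM in other cells, and 1.06 and 0.708 CPM at day 1. In day-4 vehicle Isx stood at 172 CPM, above the Ly6d-high cells. Of the PPAR and fatty acid oxidation genes 1 of 24 was 1.5-fold above the other cells and 6 were lower. Plin2, a lipid droplet coat protein, was at 222 CPM in Ly6d-high cells, 110 CPM in other cells, and 41.3 and 54.7 CPM at day 1.

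Many secretory genes and some stem and absorptive genes were lower in the Ly6d-high cells. Of all genes, 5.45% were 1.5-fold above the other cells and 8.56% below, and 16.9% and 33.3% against both day-1 libraries. On the enterocyte list 6 of 13 genes were at least 1.5-fold below the other cells and 3 above, and the summed level was 9219.9 CPM in Ly6d-high cells and 9418 CPM in other cells. On the crypt stem cell list 4 of 11 genes were at least 1.5-fold below the other cells and 0 above, and 13 of 17 were below both day-1 libraries and 1 above. Smoc2, a stem cell matrix protein, was at 8.86 CPM in Ly6d-high cells, 57.9 CPM in other cells, and 105 and 78.5 CPM at day 1. Lgr5, a marker of crypt stem cells, was at 4.05 CPM in Ly6d-high cells, 17.5 CPM in other cells, and 10.6 and 6.07 CPM at day 1. Pigr, which carries IgA across epithelium, was at 21.3 CPM in Ly6d-high cells, 249 CPM in other cells, and 165 and 172 CPM at day 1. On the goblet list 13 of 14 genes at the floor were 1.5-fold lower than in the other cells and 0 higher, and on the enteroendocrine list 12 of 12 were lower. The cells behind these sums differed in kind. The other cells held 117 goblet-like and 33 enteroendocrine-like cells, the Ly6d-high cells 3 and 2. With those clusters taken out of the other cells alone, the goblet median log2 ratio was -0.40, against -2.56 with them, and the enteroendocrine median was 1.21, against -2.75. In the Ly6d-high cells 91.4% of the 432 Cck UMIs came from 1 cell. In sums over cells, fewer cells of a type and less RNA per cell cannot be told apart.

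Mitosis genes were also lower, with 14 of 23 at least 1.5-fold below the other cells and 0 above, and a median log2 ratio of -0.62. Mki67 was at 25.8 CPM in Ly6d-high cells, 47.7 CPM in other cells, and 352 and 300 CPM at day 1. After thinning, Mki67 was seen in 5.53% of Ly6d-high cells, 10.2% of other cells, and 70.9% and 58.7% of day-1 cells, and without thinning in 11.4% of Ly6d-high and 17.0% of other cells. DNA replication genes had 4 of 18 lower and 0 higher than in the other cells. Of all genes, 8.56% were 1.5-fold lower and 5.45% higher than in the other cells.

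The Ly6d-high cells were spread unevenly over clusters. The cells of the antagonist library were clustered without Ly6d, Ly6g and Wfdc2, which gave 9 clusters. Cluster 2 (698 cells, led by Mcpt2, Krt79, Mal and Krt4) was 68.8% Ly6d-high and held 41.0% of all Ly6d-high cells. Cluster 3 (623 cells, led by Sprr2f, Cldn4 and Ly6m among others) was 60.7% Ly6d-high and held 32.3% of them. Cluster 5 (390 cells, led by Slc40a1, Cyp2c65 and Mep1b) was 35.9% Ly6d-high. A mitotic-like cluster of 260 cells was 22.3% Ly6d-high. Cluster 8 was small, with 48 cells, of which 91.7% were Ly6d-high; it was led by Psca and Sprr1a and shallow, with a median of 5484 UMIs and 1350 genes. Cluster 1 (855 cells, with Pigr among its leading genes and Lgr5, Smoc2 and Slc12a2 at least 2-fold above the rest) was 1.75% Ly6d-high. Clusters 1 to 5 and 8 did not meet the marker rule for a name and were left unnamed.

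**Figure D3:**
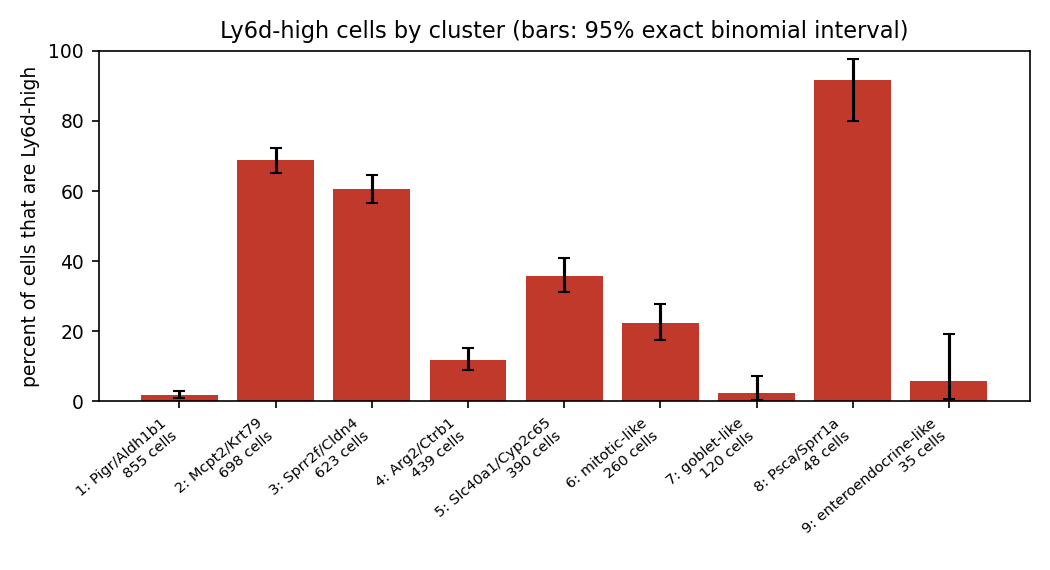
Percent of cells that are Ly6d-high (y axis) in each of 9 clusters (x axis) of the antagonist library, with 95% exact binomial intervals. Clusters 8, 2 and 3 stand at 91.7%, 68.8% and 60.7%, cluster 1 and the goblet-like and enteroendocrine-like clusters under 6%.

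The Ly6d-high cells of clusters 2 and 3 were unlike each other. In cluster 2 they had 211 CPM of Krt79, 114 CPM of Krt4, 488 CPM of Tff1 and 4.78 CPM of Sprr2f. In cluster 3 they had 37.7 CPM of Krt79, 25.7 CPM of Krt4, 164 CPM of Tff1 and 1180 CPM of Sprr2f. Areg, an EGF receptor ligand, was at 1763 CPM in the Ly6d-high cells of cluster 2 and 5384 CPM in those of cluster 3, and Cldn4, a tight junction claudin, at 111 and 1396 CPM. Nupr1, a stress-induced chromatin protein, was at 674 and 2168 CPM. Those of cluster 5 kept more absorptive RNA, with 6866 CPM of Fabp1, a fatty acid-binding protein, against 1001 CPM in those of cluster 2. Because clusters are made from these genes, the values describe them and are no test.

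Inside a cluster far fewer genes were apart. Between Ly6d-high and other cells of cluster 2, 32 of 7759 genes (0.412%) stood 2-fold or more above and 18 (0.232%) below, in cluster 3 63 of 7374 (0.854%) above and 47 (0.637%) below, and in cluster 5 13 of 7502 (0.173%) above and 6 below. Of the 163 genes other than Ly6d that were 2-fold higher across the library, 23 of 151 at the floor were 2-fold higher in cluster 2, 45 of 159 in cluster 3 and 6 of 115 in cluster 5. By any amount, 140, 155 and 101 of them were higher in these clusters. Their median log2 ratios were 0.53, 0.74 and 0.34, beside -0.092, -0.095 and -0.039 over all genes. These are subsets of the cells that chose the genes, so the counts are a description. Mcpt2 stood above the other cells in each of these clusters, by less than the 11.4-fold across the library: in cluster 2, at 304 CPM in Ly6d-high and 68.9 CPM in other cells, in cluster 3, at 71.5 and 24.3 CPM, and in cluster 5, at 126 and 35.0 CPM. Psca was at 92.5 CPM in Ly6d-high and 14.2 CPM in other cells of cluster 2, and at 46.7 and 6.88 CPM in cluster 3. The name-giving markers Ly6g and Wfdc2 did not separate the cells of cluster 2. Ly6g was at 666 CPM in its Ly6d-high and 629 CPM in its other cells, and Wfdc2 at 285 CPM in its Ly6d-high and 364 CPM in its other cells. In cluster 3 both were higher in the Ly6d-high cells, with 375 and 220 CPM of Ly6g and 123 and 44.1 CPM of Wfdc2.

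Across bins of rising Ly6d, 2 patterns appeared. Ly6m was higher mainly in the upper bins, with 16.8, 19.5, 20.9, 39.7, 114 and 318 CPM in cells with under 1, 1 to 5, 5 to 10, 10 to 20, 20 to 40 and 40 or more Ly6d UMIs per 10000. Psca ran from 3.51 through 11 (5 to 10) to 121 CPM, and Mcpt2 from 10.7 through 49.2 to 288 CPM over the same bins. Ly6a, in contrast, was already high before the rule began, with 531, 1383, 1641, 1646, 1742 and 1912 CPM. Wfdc2 was highest in the middle bins, with 66.2, 204, 217, 243, 224 and 160 CPM. Mki67 was lowest in the upper bins, with 47.4, 49.0, 66.0, 26.9, 19.4 and 12.8 CPM. The median mitochondrial share moved with these bins, at 2.24% in the lowest and 1.13% in the highest, and its part in them was not tested.

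**Figure D4:**
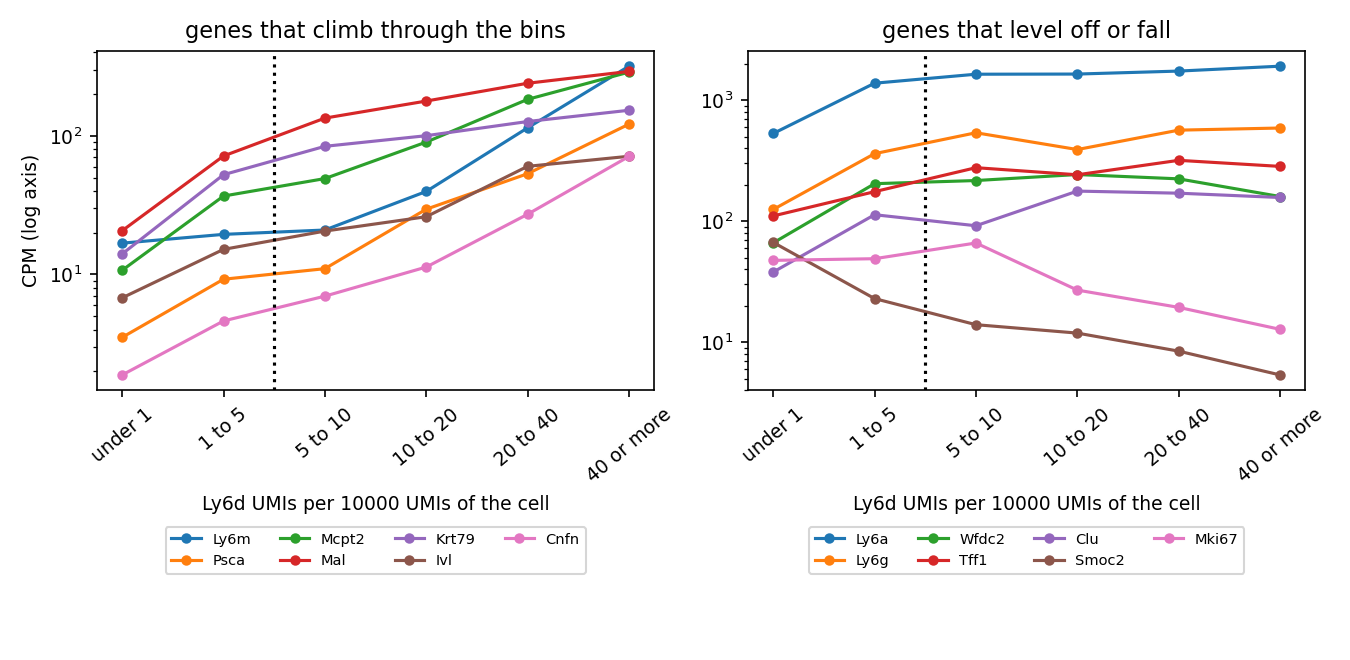
Level (CPM, log axis) of 14 genes in 6 bins of Ly6d UMIs per 10000 UMIs of the cell, with the rule as a dotted line. Ly6m, Psca, Mcpt2 and Cnfn climb through the highest bin, whereas Ly6a levels off from the second bin on and Smoc2 and Mki67 are lowest in the highest bin.

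Set against both day-1 vehicle libraries, the Ly6d-high cells had 790 of 8749 genes (9.03%) higher by 2-fold or more and 1721 (19.7%) lower. The median over all genes was -0.25 at equal totals. TMM factors gave 1130 higher and 1273 lower, and DESeq2 size factors 1225 and 1209. The other cells of the library, set against the same day-1 libraries, had 540 of 8704 genes higher (6.2%) and 985 lower (11.3%). The 2 sets share the day-1 libraries, so their values are given side by side.

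Cell cycle genes were low. All 28 DNA replication genes and all 26 mitosis genes were at least 1.5-fold below both day-1 libraries at equal totals, with median log2 ratios of -2.76 and -2.71. Of all genes, 33.3% were that far below. Mcm3, part of the replicative helicase, was at 9.15 CPM in Ly6d-high cells, 17.3 CPM in other cells, and 193 and 138 CPM at day 1. Day-4 vehicle lay between, with 52.0 CPM of Mcm3 and 95.7 CPM of Mki67.

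Enterocyte genes were lower as well, with 22 of 28 at least 1.5-fold below both day-1 libraries and 2 above. Of all genes, 33.3% were that far below and 16.9% above. Sis, the brush border sucrase-isomaltase, was at 1.10 CPM in Ly6d-high cells, 5.94 CPM in other cells, and 224 and 429 CPM at day 1, while day-4 vehicle had 1954 CPM. Apoa1, an apolipoprotein of lipid export, had 0 UMIs in Ly6d-high cells and 1 UMI in other cells, and 91.8 and 323 CPM at day 1. Against the floor of 3 UMIs, Apoa1 was at least 528.6-fold and 1860-fold lower in Ly6d-high cells than at day 1. Fabp1 did not follow, at 3124 CPM in Ly6d-high cells, 5071 CPM in other cells, and 2967 and 5331 CPM at day 1. Acta1, among the genes furthest below day 1, was at 0.232 CPM in Ly6d-high cells, 17.98 CPM in other cells, and 707 and 1010 CPM at day 1, with 98.3% of its 543 UMIs in the antagonist library in 1 cell.

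Glycolysis and hypoxia genes were the other large block. All 25 were at least 1.5-fold above both day-1 libraries, with a median log2 ratio of 2.171, and 3 of 25 were 1.5-fold above the other cells. Of all genes, 16.9% were that far above both day-1 libraries and 33.3% below, and 5.45% and 8.56% against the other cells. Ero1l, an oxidase of disulfide bond formation, was at 2894 CPM in Ly6d-high cells, 2031 CPM in other cells, and 81.8 and 85.1 CPM at day 1. Slc2a1, the glucose transporter GLUT1, was at 619 CPM in Ly6d-high cells, 295 CPM in other cells, and 36.7 and 44.0 CPM at day 1. Day-4 vehicle had 512 CPM of Ero1l and 81.5 CPM of Slc2a1, above day 1 for both. Cholesterol synthesis genes had 18 of 24 at least 1.5-fold above day 1 and 1 below, while against the other cells 0 were higher and 2 lower. Nupr1 was at 1130 CPM in Ly6d-high cells, 1159 CPM in other cells, and 9.97 and 24.8 CPM at day 1, so its distance from day 1 was that of the library as a whole.

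Immediate early genes, which cells switch on within minutes of a stimulus, were above both day-1 libraries for 18 of 18 genes at the 1.5-fold mark, with a median log2 ratio of 1.76. Fos was at 634 CPM in Ly6d-high cells, 631 CPM in other cells, and 90.1 and 149 CPM at day 1. Day-4 vehicle had 662 CPM of Fos, so this level was not particular to the antagonist library. On a list of heat shock genes that respond to tissue dissociation, 2 of 10 were at least 1.5-fold above both day-1 libraries and 5 below. Of all genes, 16.9% were that far above and 33.3% below.

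**Figure D5:**
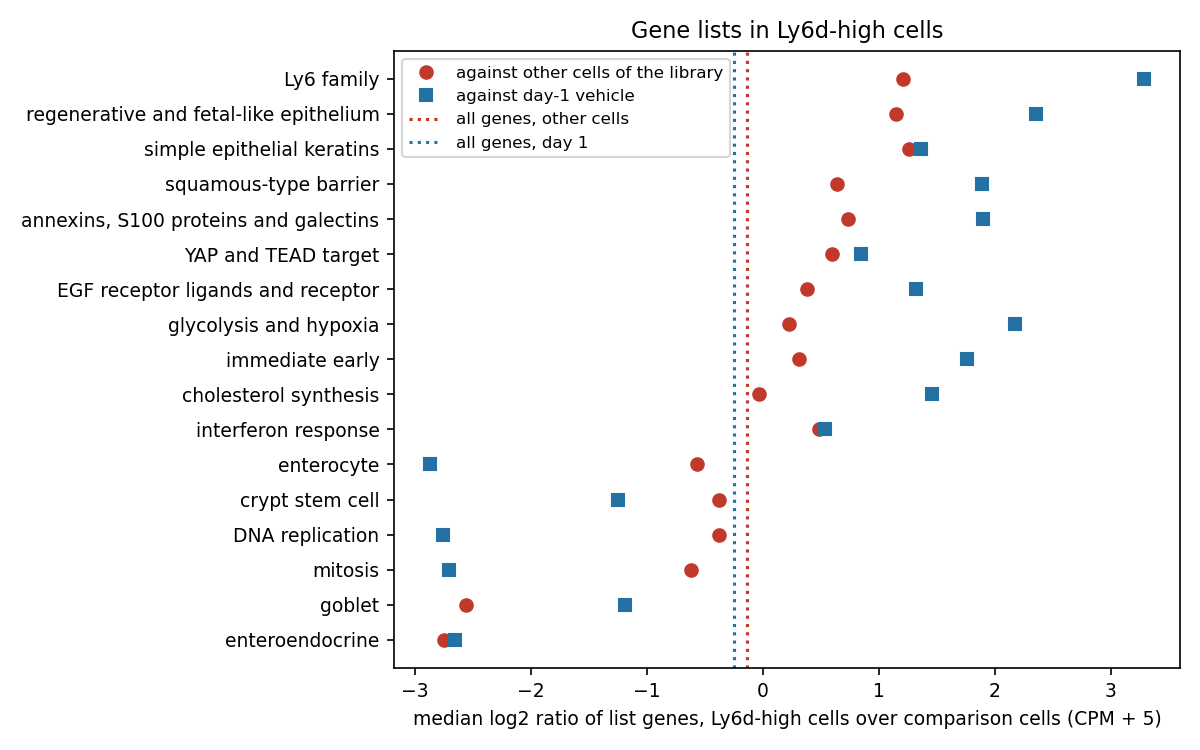
Median log2 ratio (x axis, CPM + 5) of 17 gene lists (y axis) in Ly6d-high cells over the other cells of the library (circles) and over day-1 vehicle (squares), with dotted lines at the medians of all genes, -0.13 and -0.25. Glycolysis and cholesterol lists lie far from 0 only against day 1, at 2.171 and 1.46, while the keratin list lies near 1.3 against both.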

How the data were processed

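Single-cell libraries were made with a 3-prime droplet kit after sorting that discarded debris and dead cells, per the labels' protocols. bcl2fastq 2.17, Cell Ranger 3.1.0 and GRCm38 are named in the submitters' processing notes. The deposited values are UMI counts per gene and cell for 55335 genes, not normalized by the authors. The lowest gene number of any deposited barcode was 1001 and the highest mitochondrial share 9.996%, so filters of 500 genes, 1000 UMIs and 20% removed 0 barcodes. Scrublet marked 0% to 1.09% of barcodes, which did not work as a filter, so the highest scores were removed at 0.8% per 1000 barcodes (102 to 249 per library). Kept libraries held 47254884 to 62512096 UMIs, and the antagonist library shared 2 to 4 barcodes with each other library.

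UMIs were summed per set of cells and scaled to CPM. Before log2 ratios were taken, 5 CPM was added to each value, and only genes reaching 10 CPM in some set entered. Against day 1 a call had to hold against each library. Intervals are exact Poisson or conditional binomial, at 95%, for counting error only. Zero counts were bounded at 3 UMIs per set or library. Clusters came from Leiden clustering in scanpy 1.11.5 (2000 variable genes, 30 components, 15 neighbours, resolution 0.5), and names needed 3 markers among the leading 10 genes. TMM factors came from edgeR 4.0.16. The size calls were tested on simulated data with planted changes larger than 2-fold. Those data had no variation between cells, so that test does not cover sums that rest on few cells. Named genes were the 12 highest and 12 lowest ratios of each comparison without predicted genes, up to 4 of each of 40 lists, and the Ly6 family; Epcam, Rxra, Fabp1, Clu, Sprr3, Sprr1b, Lynx1, Gml, Gml2 and others used to describe clusters, bins or loci were named after their values were seen. Promoters are RefSeq sequences. Some genes that the rule selects are not reported here. The members and lists were chosen with earlier results of these data known.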

Additional observations from a re-analysis of the deposited data

Results flagged for a closer look

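Ly6d was found in 2 day-4 libraries that the comparisons do not use, above its level in day-4 vehicle. With retinoic acid it was at 1.77 CPM, from 107 UMIs in 5 cells, of which 3 met the rule and 1 reached 78.4 Ly6d UMIs per 10000. In vitamin A-free medium it was at 1.14 CPM, from 56 UMIs in 15 cells, of which 2 met the rule. In day-4 vehicle it was at 0.340 CPM, from 17 UMIs in 6 cells. These are 1 library each, so the differences were not tested.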

How the results depend on the processing

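No paired analysis was possible because the antagonist group has 1 library. The number of Ly6d-high cells was 1296 with a rule of 3 per 10000 and 996 with 10. Genes 2-fold higher and lower than in other cells numbered 254 and 101 with DESeq2 size factors, and lower ones 105 with TMM factors and 254 with a pseudocount of 1 CPM. With a floor of 50 CPM they were 92 and 76, and 509 and 1002 against day 1, where DESeq2 size factors gave 1225 higher. Without either day-1 library in turn, counts against day 1 ran from 805 to 1001 higher and 1768 to 2002 lower. Within clusters, added after the data were seen, counts were 32 and 18 (cluster 2), 63 and 47 (cluster 3) and 13 and 6 (cluster 5). List medians that turned sign were, without a floor against day 1, secreted whey-acidic and protease inhibitors (-0.0024) and tuft (-0.0047). Within clusters they were the name-giving markers without Ly6d (-0.13) and YAP and TEAD targets (-0.17) in cluster 2, trefoil and gastric mucus (-1.51) and Paneth (0.27) in cluster 5, and enteroendocrine (0.71, 2.81 and 0.92 in clusters 2, 3 and 5, over 1, 2 and 1 genes). Without the secretory-like clusters among the other cells, the enteroendocrine median was 1.21, and log2 ratios were 1.98 for Cck, 1.21 for Chgb, 0.054 for Defa24, 0.21 for Gcg, 0.10 for Mmp7, 0.15 for Muc2, 0.091 for Tac1 and 1.69 for Zg16. That setting leaves the 5 secretory-like cells among the Ly6d-high cells in place. The cause of the other changes was not tested. Under the other settings tried, 3248 log2 ratios of named genes kept their direction and size and 150 moved without turning. Depth limits genes near 10 CPM, and 1 antagonist library limits every comparison.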

Other observations

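The few day-1 cells with Ly6d were compared with the day-1 cells without it, inside each library. There were 184 and 201 such cells (median 13960 and 13644 UMIs), against 5143 and 4878 cells with none (11354 and 11712 UMIs). Of the 163 genes other than Ly6d that were 2-fold higher in the Ly6d-high cells under the antagonist, 77 met the floor. The floor was 10 CPM in the cells with or the cells without Ly6d, in both day-1 libraries. A gene could enter through the cells with Ly6d alone, as Ly6g did. Ly6g was at 13.8 and 20.7 CPM in cells with Ly6d, against 3.47 and 3.61 CPM in those without. The counts that follow are therefore a description and no test. Of these 77, 16 (20.8%) were at least 2-fold higher in the day-1 cells with Ly6d in both libraries, against 18 of all 8004 genes (0.225%), and 72 (93.5%) were higher by any amount in both, against 2311 of all 8004 (28.9%). Of 133 genes lower under the antagonist, 20 (15.0%) were 2-fold lower in both, against 0.362% of all genes, and 0 were 2-fold higher. These 20 include secretory genes such as Cck, Chgb, Gcg and Muc2. Cck was at 4.35 and 14.65 CPM in cells with Ly6d, against 527 and 1913 CPM in those without. Here too, fewer cells of a type and less RNA per cell cannot be told apart.

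Among these genes, Ly6a was at 389 and 456 CPM in day-1 cells with Ly6d, against 120 and 121 CPM in those without. Psca was at 26.5 and 53.6 CPM in cells with Ly6d, against 7.12 and 17.6 CPM in those without. Msln was at 192 and 298 CPM in cells with Ly6d, against 65.8 and 116 CPM in those without. Mki67 was at 346 and 302 CPM in cells with Ly6d, against 352 and 299.5 CPM in those without, unlike its lower level in the Ly6d-high cells of the antagonist library. The depth gap between these cells is given above and its part was not tested.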
